A study of Mus musculus with 8 samples.

Results

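The simple epithelial keratins are the intermediate filament proteins of single-layered epithelia, and 6 of them were followed here: the type II keratins Krt7 and Krt8 and the type I keratins Krt18, Krt19, Krt20 and Krt23. They were taken by gene name from the 31228 genes of 1 deposited expression table, and all 6 were present. The table holds 8 RNA-seq libraries from C57BL/6 mice. Each organ, extrahepatic bile duct and pancreatic duct, gave 1 library of its epithelium and 3 of organoid cultures. No genotype, drug treatment or age is named for any group. Both epithelia were freshly digested duct tissue put straight into Trizol, and they are called fresh bile duct and fresh pancreatic duct here where both are given. Organoids, hollow epithelial structures grown from duct cells in Matrigel, had been cultured for 3 to 4 passages in medium with EGF, R-Spondin-1, Noggin, FGF10, nicotinamide and N-acetylcysteine. Wnt3A and the kinase inhibitor Y27632 were withdrawn once luminal structures had formed. Nothing in the labels says whether the 3 cultures of an organ came from separate mice, so p-values measure only the spread between these samples, which may be technical.

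Keratins assemble as obligate pairs of a type I and a type II chain, and the pair KRT8 and KRT18 is the basic filament of liver, bile duct, pancreas and gut epithelium. Ducts add KRT7 and KRT19, and these are used as markers that set bile duct cells apart from hepatocytes and pancreatic duct cells from acinar cells. KRT20 belongs to differentiated cells of the intestine, stomach and urothelium, and KRT23 is a less studied type I keratin. Filaments are anchored to desmosomes through desmoplakin and other plakins.

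The libraries held between 12876470 and 20828217 reads, as worked out from the steps between the deposited values. Values are FPKM, fragments scaled to exon length and library size, and all 6 keratins passed the filter of the tests in both comparisons that were fitted. Mitochondrial genes held 24.9% and 18.8% of the summed FPKM in the bile and pancreatic duct epithelium and 5.43% to 7.29% in organoids. The epithelia were not pure duct cells. The summed level of 11 acinar genes was 18308 scaled FPKM, that is FPKM divided by a trimmed-mean factor of each library, in fresh bile duct and 38154 in fresh pancreatic duct, beside 1.72 to 7.70 in organoids, where 6 of the 11 (Pnlip, Pnliprp1, Cela3b, Cpa1, Cpb1 and Ptf1a) were at 0 in every library. The sums for smooth muscle (5 genes) were 1908 and 3582, and those for fibroblasts (6 genes) 1278 and 1485, against at most 0.643 and 2.54 in organoids. Endothelial genes (5) summed to 265 and 488 and immune genes (6) to 366 and 356 in the epithelia, against at most 0.0761 and 11.8 in organoids. A list of 10 duct genes summed to 535 and 232 scaled FPKM in the epithelia and to 557 to 1724 in organoids. Spp1 was the largest part of these sums, at 388 and 170 in the epithelia and 269 to 1432 in organoids. It did not pass the test of organoids against epithelia (adjusted p = 0.222, limma). In that test 5 of the 10 duct genes rose and 0 fell, beside 32.5% and 26.9% of all genes. With each library scaled to 12 epithelial genes other than keratins, 1 was higher and 4 lower (median -0.74), beside 2.34% and 75.7% of all genes (median -1.54).

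Krt8 and Krt18 were the most abundant of the 6 keratins in every organoid. Krt8, the type II chain of the basic pair, was at 959 FPKM in fresh bile duct and 155 in fresh pancreatic duct. It was at 3748, 2526 and 2711 FPKM in bile duct organoids 1 to 3 and at 4555, 3199 and 1620 in pancreatic duct organoids 1 to 3. Every organoid was above both epithelia, and the 2 organoid groups overlapped. In organoids Krt8 ranked between 2 and 8 among all genes of a library by FPKM, and in the epithelia it ranked 40 and 239.

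Krt18, the type I partner of Krt8, was at 417 and 142 FPKM in the bile and pancreatic duct epithelium. Bile duct organoids 1 to 3 held 3223, 1993 and 2241 FPKM, and pancreatic duct organoids 1 to 3 held 3088, 2446 and 1351. Again the 6 organoids stood above both epithelia and the organoid groups overlapped. The genes of this pair, Krt8 (ENSMUSG00000049382) and Krt18 (ENSMUSG00000023043), are neighbours at the end of the keratin cluster of chromosome 15, on opposite strands and 23873 bases apart (GRCm38, chr15:101996711-102004342, minus strand, and chr15:102028216-102032026, plus strand).

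Krt19, a type I duct keratin that lacks most of the usual tail domain, was at 432 FPKM in fresh bile duct and 83.8 in fresh pancreatic duct. Its 3 bile duct organoid values were 792, 1042 and 1077 FPKM, and those of pancreatic duct organoids were 2097, 1182 and 699. Krt7, the second type II keratin of ducts, was at 22.6 and 5.37 FPKM in the epithelia. Its organoid levels were 148, 162 and 197 FPKM from bile duct and 304, 161 and 99.3 from pancreatic duct. For both keratins every organoid was above both epithelia, while the widest spread within a group was between pancreatic duct organoids 1 and 3 (3.00-fold for Krt19 and 3.06-fold for Krt7).

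Krt23 was at 17.0 FPKM in fresh bile duct and 4.55 in fresh pancreatic duct. Bile duct organoids held 193, 70.8 and 86.5 FPKM and pancreatic duct organoids 122, 179 and 98.0, again with all 6 organoids above both epithelia.

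Krt20 had a different pattern. It was at 178 FPKM in fresh bile duct (4410 reads) and at 1.68 in fresh pancreatic duct (50 reads, 95% Poisson interval 1.25 to 2.21 FPKM, which covers counting error only). Organoids held 8.19, 4.91 and 3.81 FPKM (bile duct) and 2.76, 13.3 and 3.21 FPKM (pancreatic duct), on 82 to 450 reads. Bile duct epithelium thus stood above every other library, and pancreatic duct epithelium had the lowest value, although its interval overlapped that of pancreatic duct organoid 1 (2.197 to 3.43 FPKM).

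**Figure D1:**
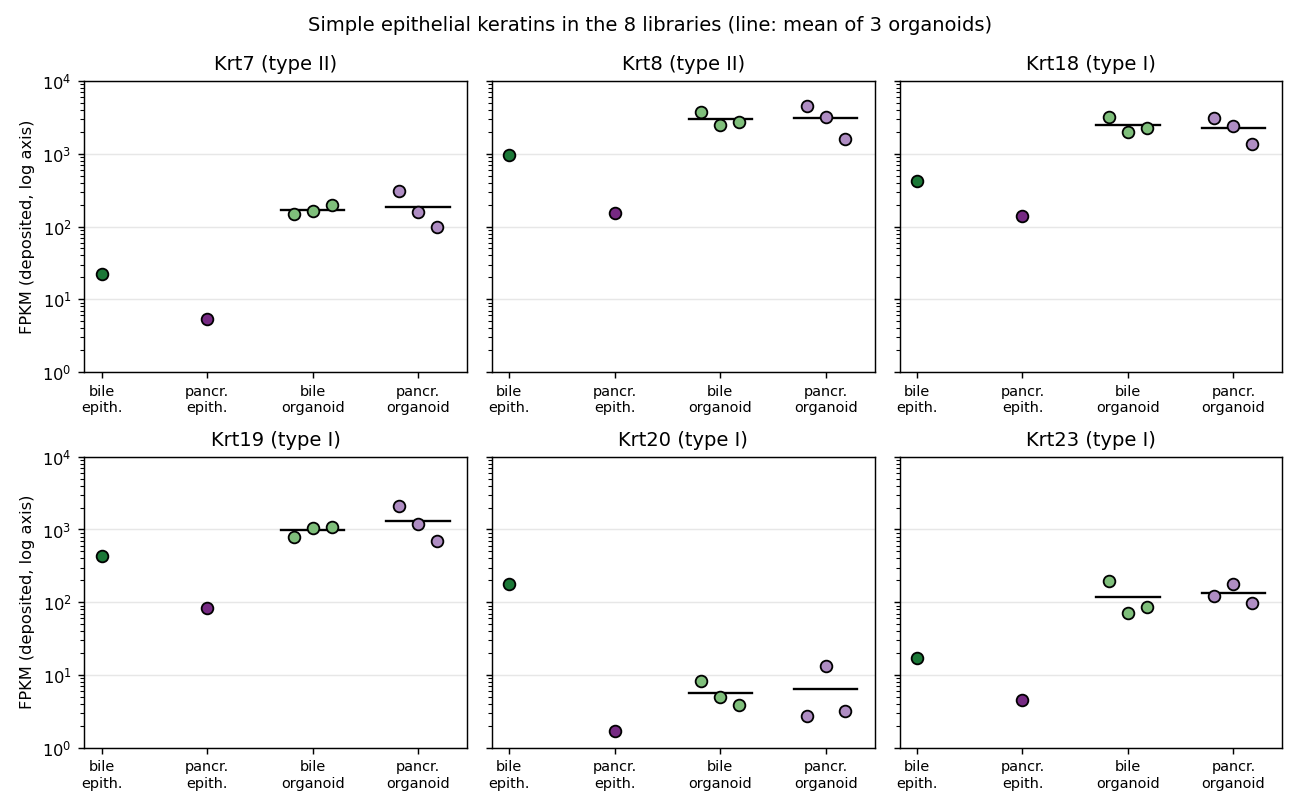
Deposited FPKM of each keratin on a log axis, with 1 point per library, the 4 groups along the x axis and a line at the mean of each 3 organoids. The panels other than Krt20 show both epithelia below all organoids, whereas Krt20 is at 178 FPKM in bile duct epithelium and at 13.3 or lower in the other 7 libraries.

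The start regions of Krt8, Krt18 and Krt20 are shown because Krt8 and Krt18 are the neighbouring pair with like levels across the libraries and Krt20 is the keratin with another pattern. RefSeq windows (GRCm38.p6) were found for 5 of the 6 genes (all but Krt19), and motifs were searched on both strands in 300 bases, 250 before the start and 50 after it. The 270 bases from 250 before to 20 after the start are printed 5′ to 3′ on the strand of the gene, at chr15:102004323-102004592 (minus strand), chr15:102027966-102028235 (plus strand) and chr11:99438134-99438403 (minus strand). Capitals mark motif matches.
Krt8: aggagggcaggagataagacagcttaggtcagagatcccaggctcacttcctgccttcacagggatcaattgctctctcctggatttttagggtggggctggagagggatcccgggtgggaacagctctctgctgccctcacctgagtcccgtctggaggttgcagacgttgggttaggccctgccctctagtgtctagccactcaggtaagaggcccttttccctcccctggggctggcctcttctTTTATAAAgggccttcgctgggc
Krt18: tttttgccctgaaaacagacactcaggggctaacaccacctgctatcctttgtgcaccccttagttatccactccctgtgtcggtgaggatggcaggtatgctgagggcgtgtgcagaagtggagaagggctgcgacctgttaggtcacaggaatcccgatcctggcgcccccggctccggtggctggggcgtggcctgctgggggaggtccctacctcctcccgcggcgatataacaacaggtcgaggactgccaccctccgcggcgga
Krt20: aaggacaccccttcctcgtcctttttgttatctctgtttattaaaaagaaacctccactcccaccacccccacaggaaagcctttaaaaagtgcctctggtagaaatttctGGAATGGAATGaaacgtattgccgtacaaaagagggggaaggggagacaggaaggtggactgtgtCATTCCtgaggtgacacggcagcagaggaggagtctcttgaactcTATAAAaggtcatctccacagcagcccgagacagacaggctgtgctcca

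The Krt8 window held the TATA box letters TATAAA in the printed direction from base 250 and in reverse complement, overlapping them, from base 248. In the Krt20 window TATAAA began at base 222, and the TEAD letters GGAATG were matched at bases 112 and 117, which overlap by 1 base, and in reverse complement at base 177. TATAAA was in 13.6% and GGAATG in 14.7% of 32851 windows of the same length. The Krt18 window matched none of the 11 motifs searched. The others included the GC box GGGCGG (35.7% of windows, 4 matches in Krt7), CCAAT (37.4%), AP-1 TGANTCA (7.81%), GRHL AACCNGTT (2.09%), CDX TTTATG (11.8%, 1 match in Krt23), HNF4 CAAAGTCCA (0.475%), FOXA TGTTTAC (3.65%) and ETS CCGGAAGT (3.89%). GC content was 58% for Krt8, 61.3% for Krt18 and 50% for Krt20, beside a median of 52.7% over all windows.

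The order of the levels, which are per exon length, was Krt8, Krt19, Krt18, Krt20, Krt7 and Krt23 in bile duct epithelium. Krt19 and Krt18 differed there by only 1.04-fold with 1 library. In pancreatic duct epithelium it was Krt8, Krt18, Krt19, Krt7, Krt23 and Krt20, with Krt8 1.10-fold above Krt18. In organoids Krt8 stood above Krt18 in 6 of 6 libraries, by 0.34 ± 0.12 (SD) on the log2 scale, and Krt18 above Krt19 in 6 of 6, by 1.10 ± 0.49. Krt19 exceeded Krt7 by 2.67 ± 0.19 and Krt23 exceeded Krt20 by 4.51 ± 0.65, each in 6 of 6. Krt7 and Krt23 could not be ordered: Krt7 was higher in 4 of 6 organoids and the mean difference of 0.53 ± 0.78 was within its spread. That comparison also depends on the length used for Krt7. The deposited values imply 7055 exon bases for Krt7, whereas its longest coding transcript in GENCODE has 4094 bases. Per coding transcript length, a measure added after the data were seen, Krt7 was above Krt23 in 6 of 6 organoids, by 1.32 ± 0.78.

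Together the 6 keratins made up 0.501% of all FPKM in fresh bile duct and 0.1003% in fresh pancreatic duct. Their share was 1.81% to 2.51% for bile duct organoids and 1.23% to 3.06% for those of pancreatic duct. Krt8 held 47.4% and 39.6% of this keratin sum in the epithelia and 41.9% to 46.2% in organoids. Krt18 held 20.6% and 36.1%, then 30.4% to 39.7%, and Krt19 21.3% and 21.4%, then 9.76% to 20.6%. The Krt7 share was 1.11% and 1.37% in the epithelia and 1.82% to 3.12% in organoids (1.91% and 2.34%, then 3.19% to 5.32%, per coding transcript length), and that of Krt23 was 0.840% and 1.16%, then 1.196% to 2.53%. Krt20 was 8.77% of the sum in bile duct epithelium and at most 0.428% in any other library.

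**Figure D2:**
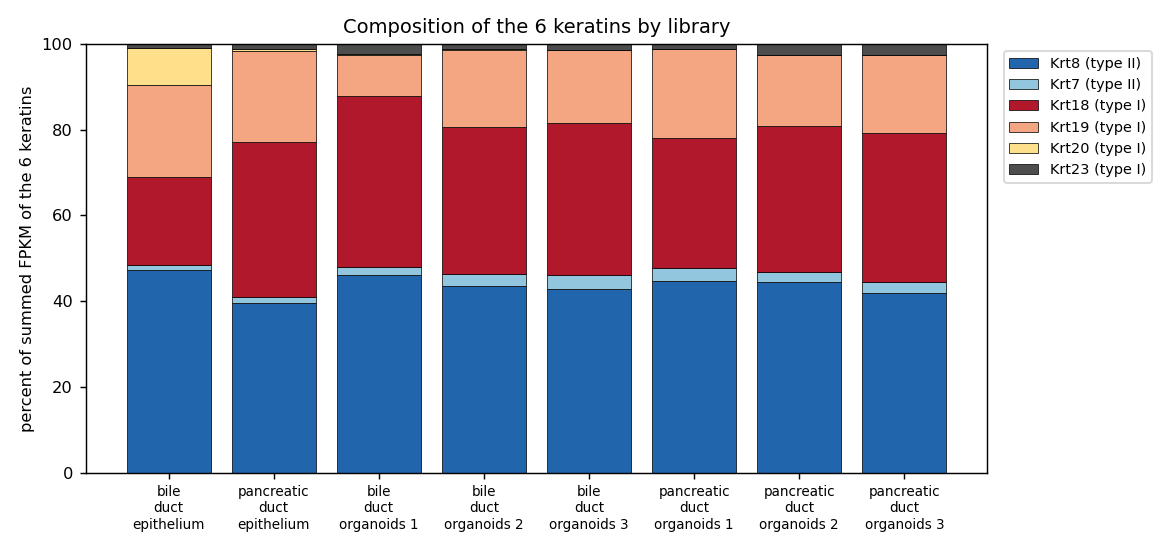
Stacked bars give the share of each keratin in the summed FPKM of the 6, in percent, with 1 bar per library; type II keratins are blue and lie at the bottom. Krt20 is visible as a band of 8.77% in bile duct epithelium, and Krt8 takes 39.6% to 47.4% of every bar.

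Because each filament needs both chain types, the balance of type II to type I transcripts was compared within libraries, where scaling has no effect. Summed type II over summed type I FPKM was 0.941 in fresh bile duct, 0.693 in fresh pancreatic duct and 0.800 to 0.924 in organoids. The log2 ratio differed by 0.03 between bile duct organoids (-0.18 ± 0.06) and pancreatic duct organoids (-0.21 ± 0.10), with p = 0.8 in an exact two-sided permutation test of 3 against 3 (adjusted p = 0.9 over 4 ratios). Such a test cannot go below 0.1. Between 6 organoids and 2 epithelia the same ratio differed by 0.11 (exact permutation p = 0.5). Per coding transcript length the difference was 0.045 between the organoids of the organs and 0.17 between organoids and epithelia.

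Krt7 relative to Krt8, the type II chains, was 0.0235 and 0.0346 in the epithelia and 0.0394 to 0.0726 in organoids. All 6 organoids were thus above both epithelia, and the group means differed by 1.02 on the log2 scale. Per coding transcript length the Krt7 to Krt8 ratios were 0.0440 and 0.0647 in the epithelia and 0.0736 to 0.136 in organoids, with the same difference. The exact two-sided permutation p was 0.0714, the smallest that 2 against 6 libraries allow, and 0.286 after adjustment over the 4 ratios. Krt8 over Krt18 was 2.30 in fresh bile duct, 1.10 in fresh pancreatic duct and 1.16 to 1.47 in organoids (organoids minus epithelia -0.33, exact p = 0.5). Krt19 over Krt18 was 1.04 and 0.593 in the epithelia and 0.246 to 0.679 in organoids, where bile duct organoid 1 was lowest (-0.74, exact p = 0.143, adjusted p = 0.286). Between the organoids of the 2 organs, Krt7 over Krt8 differed by -0.05, Krt8 over Krt18 by -0.13 and Krt19 over Krt18 by -0.49 on the log2 scale (bile minus pancreatic), with exact permutation p-values of 0.9, 0.3 and 0.4. Without bile duct organoid 1 the difference of Krt19 over Krt18 was -0.14. None of the 8 ratio tests passed, and with these numbers of libraries none could have passed after adjustment.

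Krt7, Krt8, Krt18, Krt19 and Krt23, 5 of the 6 keratins, were higher in organoids than in epithelia, while Krt20 did not pass the test. The comparison set 6 organoids against 2 epithelia with the organ as a covariate, on log2(FPKM + 1) after trimmed-mean scaling, with limma and Benjamini-Hochberg adjustment over 14967 genes. In this test 32.5% of all genes were called higher in organoids at an adjusted p under 0.05 and 26.9% lower (59.4% in either direction), so calls were common. On the log2 scale Krt7 rose by 3.67 (SE 0.53, adjusted p = 0.000852, limma) and Krt23 by 3.44 (SE 0.56, adjusted p = 0.00164). Krt18 rose by 3.10 (SE 0.46, adjusted p = 0.00103), Krt8 by 2.78 (SE 0.65, adjusted p = 0.00839) and Krt19 by 2.36 (SE 0.64, adjusted p = 0.0159). The Krt20 difference was -1.91 (SE 1.26, adjusted p = 0.227). The median over the 6 keratins was 2.94, beside 0.11 over all genes tested. All 6 organoids were above both epithelia for 5 of the 6 keratins, as they were for 35.5% of all genes. Fewer cells of a type and less RNA per cell cannot be told apart in such bulk samples, and the acinar, stromal and immune genes given above moved with the groups.

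Leaving out pancreatic duct epithelium ended the calls of Krt8 (1.49, adjusted p = 0.104) and Krt19 (1.02, adjusted p = 0.215) and put Krt20 past the threshold (-4.93, adjusted p = 0.00703, limma). Leaving out bile duct epithelium turned the Krt20 difference to 1.08 (adjusted p = 0.336) and raised the other differences to 4.60 for Krt7, 4.04 for Krt8, 3.77 for Krt18, 3.66 for Krt19 and 4.41 for Krt23.

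Within bile duct, 5 of the 6 keratins were at least 2-fold higher in organoids on the log2(scaled FPKM + 1) scale with all 3 organoids above the epithelium, a pattern of 14.7% of the 15795 genes compared, and 1 (Krt20) was lower in the same sense, a pattern of 23.6%. With 1 epithelium there is no test within an organ. Differences are given as mean ± SD over 3 organoids. The log2 difference was 2.72 ± 0.15 for Krt7, 2.46 ± 0.83 for Krt23 and 2.42 ± 0.43 for Krt18. It was smaller for Krt8, at 1.502 ± 0.37, and for Krt19, at 1.03 ± 0.17. Krt19 was just past 2-fold and fell short of it without bile duct organoid 2 (0.99) or 3 (0.98), which leaves 4 keratins higher by the rule. Krt20 fell from 188 scaled FPKM to 5.59 ± 2.57, a log2 difference of -4.91 ± 0.54 (-3.68 with a pseudocount of 10).

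Within pancreatic duct all 6 keratins were at least 2-fold higher in organoids by the same rule, which 17.1% of 15591 genes met (22.7% were lower). Krt7 had a log2 difference of 4.61 ± 0.85, Krt23 of 4.42 ± 0.48, Krt8 of 4.05 ± 0.81, Krt18 of 3.78 ± 0.67 and Krt19 of 3.68 ± 0.84. With a pseudocount of 10 in place of 1, Krt7 was at 3.48 and Krt23 at 3.19, below Krt8 at 3.98. The Krt20 difference of 1.09 ± 1.08 was as wide as its spread. It met the 2-fold rule through pancreatic duct organoid 2 alone (2.34, against 0.42 and 0.51 in the other two), and was 0.46 without that organoid and 0.41 with a pseudocount of 10, which leave 5 of the 6 keratins past the rule.

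The larger differences in pancreatic duct stood beside lower levels in its epithelium, while the organoids of both organs overlapped. With trimmed-mean scaling all 6 keratins were at least 2-fold higher in bile duct epithelium than in pancreatic duct epithelium. The same held for 8.73% of 15315 genes, and 4.54% were at least 2-fold higher in pancreatic duct. These are values of 1 library each. Marker sums differed between the same libraries. In the order bile and pancreatic duct, the 12 epithelial genes other than keratins summed to 635 and 154 scaled FPKM. The 11 acinar genes summed to 18308 and 38154. Their part in the keratin contrast was not tested, and both epithelia were not compared with scaling to the epithelial genes. In scaled FPKM the bile duct level was 2.88 times the pancreatic duct level for Krt18, 3.67 times for Krt23, 4.12 times for Krt7, 5.05 times for Krt19 and 6.06 times for Krt8. For Krt20 it was 104 times, at 188 against 1.82 scaled FPKM.

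A list of 12 other genes that mark epithelial cells (among them Epcam, Cdh1 and Cldn7) was set beside the keratins. In the test over both organs 10 of them rose and none fell, beside 32.5% higher and 26.9% lower of all genes. Elf3 did not pass (-0.41, adjusted p = 0.493, limma) and Prom2, under 1 FPKM in every library, was not tested. The part of the epithelial share of each library in the keratin differences was not tested. The 12 summed to 635 scaled FPKM in fresh bile duct, 154 in fresh pancreatic duct and 1266 to 2271 in organoids. Their median log2 difference, organoid minus epithelium, was 1.46 in bile duct (-1.60 to 2.19) and 3.10 in pancreatic duct (0.11 to 3.67). Krt7, Krt18 and Krt23 had larger differences than all 12 genes in both organs. Krt8 was above 7 of 12 in bile duct and 12 of 12 in pancreatic duct, and Krt19 above 3 of 12 and 12 of 12. Krt20 was above 0 and 2 of 12.

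When each library was instead scaled to these 12 genes, the library factors shifted log2 FPKM, organoid minus epithelium, by -1.13 in bile duct and -2.67 in pancreatic duct, and the pseudocount made the shift smaller for low genes such as Krt20. Called genes were then mostly lower in organoids (370 higher and 11974 lower, against 4867 and 4030 with trimmed-mean scaling), which is 2.34% and 75.7% of the genes tested, with a median of -1.54 over all of them. In the test over both organs Krt7 (1.87, adjusted p = 0.00147), Krt23 (1.66, adjusted p = 0.00357) and Krt18 (1.21, adjusted p = 0.0228, limma) still rose. Krt8 (0.88, adjusted p = 0.112) and Krt19 (0.47, adjusted p = 0.360) no longer passed. Krt20 fell by 3.48 (adjusted p = 0.00380). Within an organ Krt19 turned to -0.09 ± 0.24 in bile duct and Krt20 to -1.01 ± 0.96 in pancreatic duct, whereas the other keratins kept a positive mean difference in both. Krt8 in bile duct was then at 0.38 ± 0.31, and 3 of the 6 keratins in bile duct (with 1 lower) and 5 of the 6 in pancreatic duct were at least 2-fold higher by the rule. The share of all genes meeting the rule was worked out only with trimmed-mean scaling (14.7% higher in bile duct and 17.1% in pancreatic duct).

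**Figure D3:**
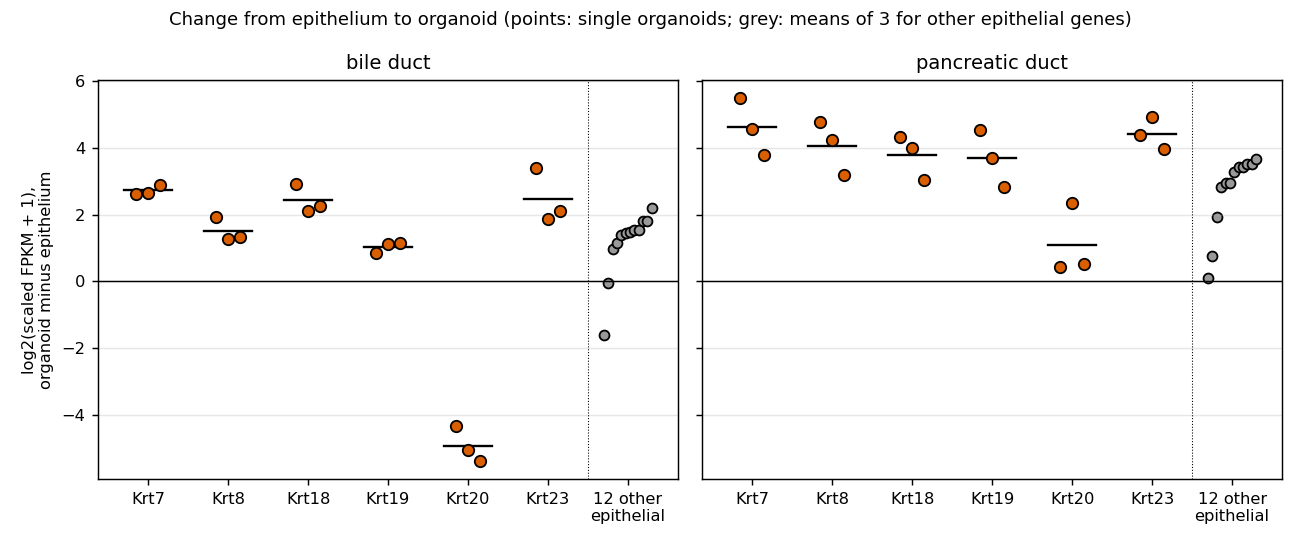
Difference in log2(scaled FPKM + 1) between organoid and epithelium for each keratin, in bile duct (left) and pancreatic duct (right); orange points are single organoids, lines their means, and grey points the means of 12 other epithelial genes. Krt20 lies at -4.91 in bile duct and 1.09 in pancreatic duct, and Krt7, Krt18 and Krt23 lie above all grey points in both panels.

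None of the 6 keratins differed between the organoids of the 2 organs at the threshold of the test. This comparison of 3 bile duct with 3 pancreatic duct organoids was fitted with limma over 12094 genes, of which 0% passed at an adjusted p under 0.05 (smallest adjusted p 0.963) and 2.57% (311 genes) had an unadjusted p under 0.05. None of the 6 keratins passed at either level. The log2 difference, bile minus pancreatic, was 0.03 for Krt8 (SE 0.43), 0.15 for Krt18 (SE 0.38), -0.33 for Krt19 (SE 0.41), -0.03 for Krt7 (SE 0.41), -0.29 for Krt23 (SE 0.45) and 0.06 for Krt20 (SE 0.57), each with an adjusted p of 1.00. The standard errors were wide beside the median of 0.17 over all genes tested, so a p above the threshold does not show that the levels were equal. In scaled FPKM, Krt8 was at 2951 ± 810 (SD, n = 3) for bile duct and 3087 ± 1522 for pancreatic duct cultures. Krt19 was at 944 ± 107 and 1310 ± 731.

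Across the 8 libraries Krt8 and Krt18 had the smallest root mean square difference of any 2 of the 6 keratins, at 0.32 between their centred log2(FPKM + 1) values. The Pearson correlation was higher for Krt7 and Krt18 (0.981) than for Krt8 and Krt18 (0.976). In root mean square difference Krt20 was 2.22 to 2.75 from each of the other 5. The same measure was taken against 7203 protein-coding genes, and it is a description of 8 libraries that share the split between epithelia and organoids. Nearest to Krt8 were Serpinb5 (0.19), Car2 (0.28) and Lad1 (0.28). Nearest to Krt18 were Itgb6 (0.24), Lad1 (0.27) and Lamb3 (0.28), and nearest to Krt7 were Steap1 (0.36), Lad1 (0.38) and Krt18 (0.40). Krt19 was nearest to Fam83h (0.34), Misp (0.36) and Krt8 (0.38), and Krt23 to Cd44 (0.24), Cdkn2b (0.30) and Tns4 (0.33). No gene was as near to Krt20, where Guca2a (0.63), Gpa33 (0.72) and Defa30 (0.76), the last from a family of near-identical defensin genes, came first.

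Guca2a was at 50.3 scaled FPKM in fresh bile duct, at 0 in fresh pancreatic duct and at 0.0979 to 1.34 in organoids. Genes of absorptive intestinal cells were also highest in fresh bile duct, where 7 of them summed to 357 scaled FPKM, against 16.9 in fresh pancreatic duct and 3.12 to 25.9 in organoids. Sis, Apoa4 and Treh among them were at 0 in every organoid. Rbp2 carried most of the organoid sum, at 2.85 to 25.0 scaled FPKM against 6.62 in fresh pancreatic duct. Their part in the Krt20 level was not tested.

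Krt20 (ENSMUSG00000035775, chr11:99428403-99438150) and Krt23 (ENSMUSG00000006777, chr11:99477974-99493137) are neighbours among the keratin genes of the deposited table on the minus strand of chromosome 11, 39823 bases apart, and had opposite differences in bile duct. Krt19 (ENSMUSG00000020911, chr11:100140810-100148665, minus strand) lies on the same chromosome, where the deposited table lists 21 keratin genes. Krt7 (ENSMUSG00000023039, chr15:101411043-101430313, plus strand) is on chromosome 15, where the table lists 20.

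Of the 35 other protein-coding keratin genes, which include those of skin and hair, 28 were under 1 scaled FPKM in every organoid and 6 of these were at 0. Low values were common, as 12094 of the 31228 genes in the table reached 1 scaled FPKM in at least 3 organoids. In all, 7 were abundant enough to be tested, with 2 higher and 1 lower in organoids (limma, adjusted p under 0.05; median 0.45), beside 32.5% and 26.9% of all genes. Krt10 rose by 0.45 and Krt15 fell by 0.96. Krt15 passed the filter of 1 FPKM only through the 2 epithelia (1.21 and 1.39 scaled FPKM), so it could only be called lower. With scaling to the 12 epithelial genes the list had 1 higher and 4 lower of 8 tested and a median of -1.18, beside 75.7% lower and a median of -1.54 over all genes. Of the 35, 4 reached 10 scaled FPKM in any library. Krt6a, a keratin of stressed and proliferating epidermis, was at 0.328 and 0.0931 scaled FPKM in the epithelia and at 1.58 to 25.8 in organoids (log2 difference 3.01, adjusted p = 0.0149). Krt14, a keratin of basal cells, was at 3.23 scaled FPKM in bile duct epithelium and 1.07 to 1.32 in bile duct organoids, but at 0.279 in pancreatic duct epithelium and 15.7, 17.5 and 1.23 in pancreatic duct organoids. Krt17 was at 1.22 and 14.1 scaled FPKM in the bile and pancreatic duct epithelium and ranged from 0.0620 to 11.2 in organoids. Krt80 was at 5.94 and 5.13 in the epithelia and at 4.06 to 11.3 in organoids. Krt14, Krt17 and Krt80 did not pass the test.

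**Figure D4:**
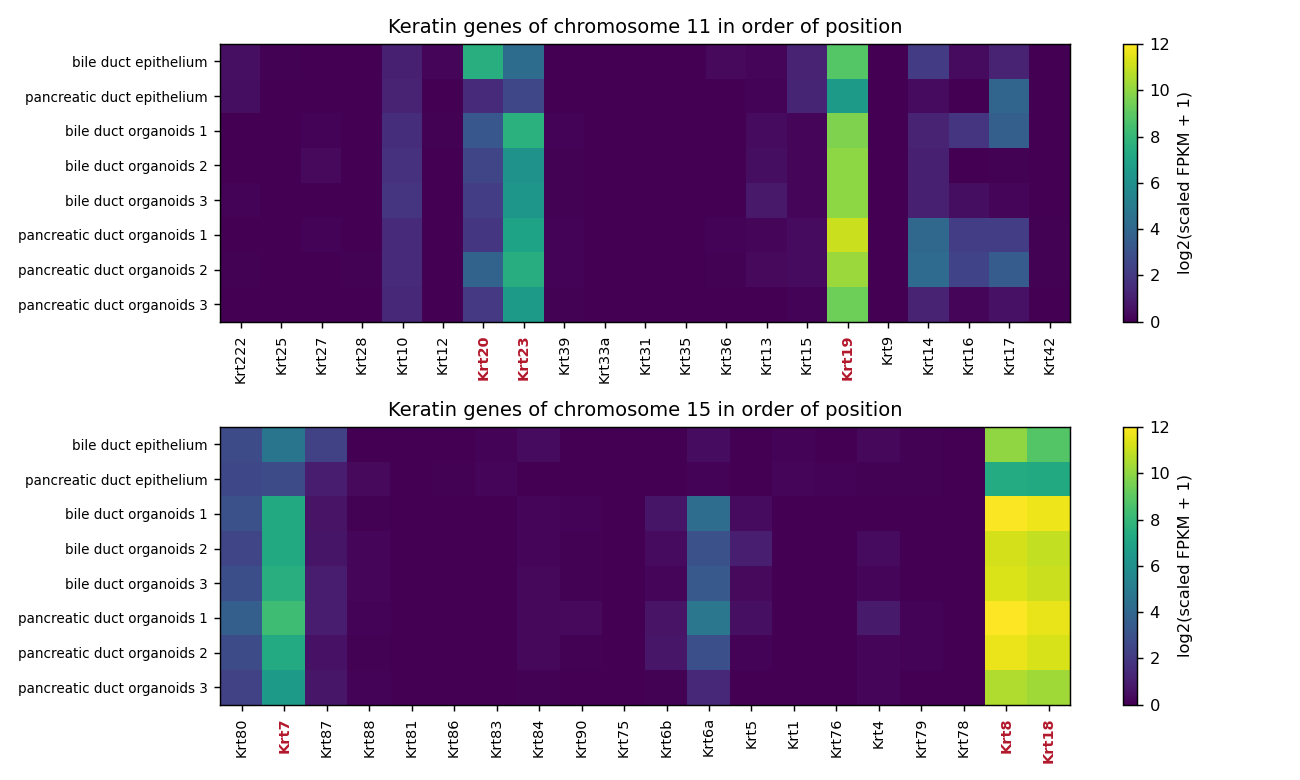
Each column is a keratin gene of the deposited table in its order along chromosome 11 (top) or 15 (bottom), each row a library, and the colour gives log2(scaled FPKM + 1); the 6 simple epithelial keratins have red names. Outside those 6 most columns are dark, since 28 of the 35 other keratin genes stay under 1 scaled FPKM in every organoid.

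Genes that work with keratin filaments were taken as lists. Of 12 tested desmosome and plakin genes, 10 rose in organoids and none fell (limma, adjusted p under 0.05; median log2 difference 1.91), beside 32.5% higher, 26.9% lower and a median of 0.11 over all genes. Pkp1, a desmosomal plaque protein, rose by 4.18, the filament anchor desmoplakin (Dsp) by 2.64, periplakin (Ppl) by 2.26 and plakophilin 3 (Pkp3) by 2.05. Of the 12 epithelial genes 11 were tested, and 10 rose and none fell (median 2.34) beside the same shares of all genes, led by Esrp2 at 2.81, Cdh1 at 2.73, Spint2 at 2.61 and Cldn7 at 2.48. With scaling to these epithelial genes the desmosome and plakin list had 2 higher and 1 lower and a median of 0.19, beside 2.34% higher, 75.7% lower and a median of -1.54 over all genes. The epithelial list itself had 3 higher and 1 lower and a median of 0.59. Its genes set this scaling, so its contrast with all genes follows from the scaling and is no result.

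Of 10 genes whose products bind or modify keratins, 5 rose and 1 fell (median 0.81), beside the 32.5% higher and 26.9% lower over all genes. Fam83h, which organises keratin filaments, rose by 2.52, the ubiquitin ligase gene Stub1 by 1.34 and the 14-3-3 gene Ywhaz by 1.25. The crosslinking enzyme transglutaminase 2 (Tgm2) fell by 2.84. With scaling to the epithelial genes this list had 1 higher and 5 lower and a median of -1.05, beside 75.7% lower and a median of -1.54 over all genes.

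Of 8 tested genes of other intermediate filaments 3 were higher and 4 lower (median -1.70), again beside 32.5% and 26.9% of all genes. The 3 that rose were the nuclear lamins Lmnb1 (3.11), Lmnb2 (1.68) and Lmna (1.02). Vimentin (Vim), the filament of mesenchymal cells, fell by 7.21, desmin (Des), that of muscle, by 7.03 and synemin (Synm) by 3.77. Des and peripherin (Prph), also called lower, reached 1 scaled FPKM only in the 2 epithelia, so they could only be called lower. Outside the epithelia Synm reached it only in pancreatic duct organoid 3 (1.69). Vim was at 369 and 532 scaled FPKM in the epithelia and at 0.385 to 28.4 in organoids, where pancreatic duct organoid 2 was highest. With scaling to the epithelial genes 1 was higher and 6 lower of 9 tested, where 75.7% of all genes were lower. Between bile and pancreatic duct organoids no gene of any list was called, as no gene of the whole table was.

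**Figure D5:**
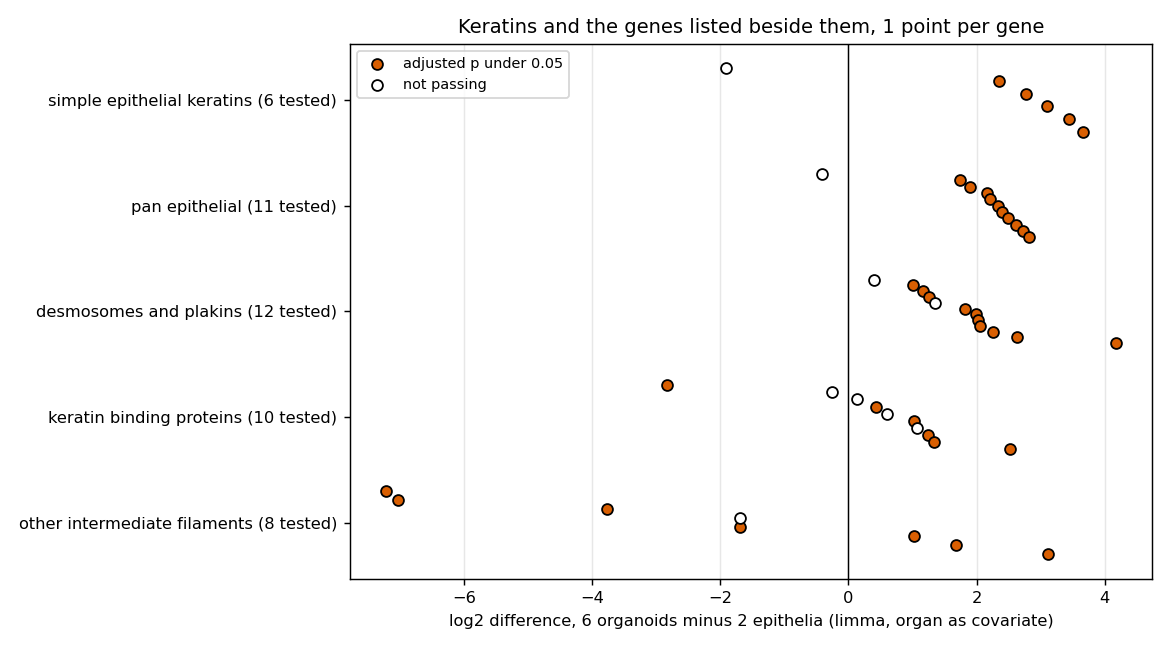
Log2 difference of 6 organoids minus 2 epithelia for each tested gene of 5 lists, 1 point per gene and 1 row per list, filled where the adjusted p was under 0.05. In filled points, 5 keratins, 10 epithelial genes and 10 desmosome and plakin genes lie to the right of 0, while Krt20 is open at -1.91 and Vim and Des lie near -7.

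Krt8 shares sequence with its processed pseudogene Krt8-ps on chromosome 7. Of the 50-base stretches in Krt8 transcripts 26.9% also occur in Krt8-ps, so reads could be split between them. Reads assigned to Krt8-ps came to 0.937% and 1.29% of those of Krt8 in the epithelia and 1.24% to 2.47% in organoids. No 50-base stretch was shared between any 2 of the 6 keratins, and no annotated gene overlaps any of them.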

How the data were processed

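Poly-A RNA of 8 libraries was sequenced after an NEBNext Ultra preparation, per the labels' protocols. The authors deposited FPKM for 31228 genes. Bowtie2 2.2.3, HISAT2 2.1.0, TopHat2 and HTSeq 0.6.0 are named in the submitters' processing notes, without roles. Whether counting used strand is not given in the sources used here. FPKM times the merged exon length of GENCODE M21 gave whole reads in all 8 libraries, within 0.05 of a read, for 28268 of 31099 matched genes (90.9%). This gave the depths. FPKM were divided by trimmed-mean factors (30% of ratios and 5% of levels trimmed), and log2(FPKM + 1) was tested with limma 3.58.1 in R 4.3.3 (trend, Benjamini-Hochberg, threshold 0.05). Genes needed 1 FPKM in 3 organoids or, over both organs, in 2 of 8 libraries. Fold changes of low genes are understated by the pseudocount. Within-organ values used a 2-fold rule. On simulated data (200 changed genes, with less spread than fitted for the keratins) limma found 100% of those changed 2-fold and 4-fold, with 12 false calls of 212 (organoids of the 2 organs) and 6 of 206 (organoids against epithelia). Named genes were the 6 keratins, up to 4 with the widest change per list, other keratins reaching 10 scaled FPKM, and the 3 nearest profiles per keratin. Lmnb2, Lmna, Prph, Spp1, Rbp2, Msln, Ttr, Alb, Krt10 and Krt15 were picked after their values were seen. The members and lists were chosen with earlier results of these data known. Ratios used exact permutation tests (scipy 1.17.1). Alternatives changed the scaling, the pseudocount, the filter, the variance model, the organ term, the replicate block, the exon length, the pseudogene reads and each library in turn.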

Additional observations from a re-analysis of the deposited data

Results flagged for a closer look

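Krt20 and Krt14 were picked out because every organoid of bile duct was below its epithelium and every organoid of pancreatic duct above its own. For Krt20 the difference between the organs, bile minus pancreatic, was -6.00 on the log2(scaled FPKM + 1) scale. For Krt14 it was -3.77, with 1.23 scaled FPKM in pancreatic duct organoid 3 against 15.7 and 17.5 in the other two. With 1 epithelium per organ neither difference was tested. Krt20 in pancreatic duct was -1.01 when libraries were scaled to 12 epithelial genes, a scaling that lowers the differences of all genes there.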

How the results depend on the processing

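In the organoid comparison the count of called genes stayed at 0 under 8 alternatives of scaling, pseudocount, filter, variance model and block, and leaving out each organoid gave 0 to 11 (1 higher in bile duct and 10 in pancreatic duct without pancreatic duct organoid 3). The correlations of deviations between same-numbered cultures were -0.103, -0.440 and 0.483, and those between cultures of unlike number ranged from -0.596 to 0.649. With 3 cultures per organ these values cannot settle whether the replicate numbers pair the organoids. With the replicate number as a block 0 genes were called and 295 had an unadjusted p under 0.05. The organ difference of each keratin changed sign when organoids were left out, over -0.44 to 0.42 (Krt7), -0.41 to 0.39 (Krt8), -0.22 to 0.43 (Krt18), -0.75 to 0.092 (Krt19), -0.27 to 0.70 (Krt20) and -0.76 to 0.0085 (Krt23), as did Krt7 with scaling to the epithelial genes (0.033) and Krt20 with a pseudocount of 10 (-0.026). None passed at an adjusted p under 0.05, though the unadjusted p of limma was 0.0390 for Krt19 without pancreatic duct organoid 3 and 0.0451 for Krt23 without bile duct organoid 1. The ratio of type II to type I ranged over -0.028 to 0.070 and Krt7 over Krt8 over -0.23 to 0.21, while Krt8 over Krt18 kept its sign at -0.20 to -0.047 and Krt19 over Krt18 at -0.69 to -0.14 (-0.14 without bile duct organoid 1).

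Over both organs 8897 genes were called, 4717 with a minimum of 10 FPKM, and 4368 to 9249 when single libraries were left out (4710 without bile duct epithelium and 4368 without pancreatic duct epithelium, where the lone epithelium is assumed to vary like the organoids). The numbers higher and lower were 4867 and 4030, against 370 and 11974 with epithelial scaling, 4692 and 6817 with no filter, and 3317 and 1400 with a minimum of 10 FPKM. The calls of Krt7, Krt18 and Krt23 held under every alternative run. Krt8 (0.88 and 1.49) and Krt19 (0.47 and 1.02) lost theirs with epithelial scaling and without pancreatic duct epithelium, Krt20 gained a call in the same settings (-3.48 and -4.93), and it turned to 1.08 without bile duct epithelium. Within organs, epithelial scaling turned Krt19 in bile duct to -0.090 and Krt20 in pancreatic duct to -1.01; the cause was not tested. Leaving out single organoids, added after the data were seen, reversed no within-organ difference. Adding Krt8-ps reads to Krt8 changed no ratio's direction. Depth limits Krt20 in pancreatic duct epithelium (50 reads).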

Other observations

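Mesothelin (Msln) carried the mesothelium list in organoids, at 323 to 800 scaled FPKM against 15.5 and 29.1 in the epithelia, while the other 4 genes of that list (Upk3b, Upk1b, Wt1 and Lrrn4) were each at 1.04 or lower in every organoid. Transthyretin (Ttr), listed as a hepatocyte gene, was at 166 and 75.1 scaled FPKM in the bile and pancreatic duct epithelium. It was at 136 in bile duct organoid 2, 78.9 in pancreatic duct organoid 3 and 5.86 to 34.4 in the other organoids, whereas albumin (Alb) was at 3.24 or lower in every organoid.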
